A study of Mus musculus with 20 samples.

Results

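The genes described here encode the DNA replication machinery. They are 44 mouse genes, listed by symbol, whose products recognise and license replication origins, unwind DNA, synthesise it and reassemble chromatin behind the fork. All 44 were found among the 23382 gene symbols of each file, and all 44 passed the filter of at least 1 TPM in at least 5 libraries, which left 11386 genes for testing. TPM is a transcript abundance corrected for transcript length and given as a share of the library.

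RNA sequencing was done on sorted germinal centre B cells of mice, in 20 libraries. The germinal centre is where activated B cells divide, mutate their antibody genes and are selected. The 4 groups of 5 libraries were centrocytes with the Myd88 allele L252P (genotype Cgamma1Cre:+/-; Myd88L252P:+/-), control centrocytes (Cgamma1Cre:+/-; Myd88L252P:WT), centroblasts with the allele and control centroblasts, and they are called mutant and control below. Centroblasts divide in the dark zone of the germinal centre, and centrocytes are selected in its light zone. Among B220+ cells positive for FAS and GL7, centrocytes were taken as CXCR4- and CD86+ and centroblasts as CXCR4+ and CD86-. Both genotypes carried 1 copy of Cre driven by the C gamma 1 locus, which B cells transcribe as they enter germinal centres, so an effect of Cre itself is shared by all 4 groups, and the share of cells that recombined is not given in the sources used here. Neither are the age and strain of the mice. Because the labels do not tell whether the 5 libraries of a group are 5 mice, the p-values measure the spread between these libraries, which may be technical.

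Replication starts in 2 steps. In G1 the origin recognition complex, with Cdc6 and Cdt1, loads the MCM2-7 ring onto DNA. In S phase the kinase Cdc7 with its activator Dbf4 lets Cdc45 and the GINS complex join that ring, which turns it into the active helicase that polymerases alpha, delta and epsilon, the PCNA clamp, its loader RFC and the single-strand binder RPA follow. Many of these genes are known targets of E2F transcription factors, which switch them on in late G1. Centroblasts are known as one of the fastest dividing cell types of the body, while most centrocytes divide less, and Myd88 carries signals of Toll-like receptors to NF-kB.

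Before the results, 3 facts on the libraries matter. Mutant centroblast libraries 4 and 5 stood apart: they had 12895 and 12719 genes above 0, against 13053 to 14092 in the other 18 libraries, and ribosomal protein genes took 11.1% and 15.1% of their TPM, against 6.44% to 8.82%. All 20 libraries held transcripts of germinal centre B cells, with Cd79a at 1667 to 2348 TPM and Bcl6 at 154 to 387 TPM. TPM is a share of the library, and the median of all genes tested was itself shifted between groups. The log2 shift was 0.14 between zones in controls, 0.34 between zones in mutants and -0.16 between genotypes in centroblasts. It was 0.02 between genotypes in centrocytes and 0.18 for the difference between the genotype effects. The cause of the shifts in these medians was not tested. Rescaling by median-of-ratios size factors brought these medians to 0.01, 0.02, 0.01, -0.01 and -0.01, and the counts and several gene values are given in both forms. The factors, by which TPM was divided, were 0.790 and 0.643 for mutant centroblast libraries 4 and 5. For the other 18 libraries they lay between 0.937 and 1.172.

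The promoters of 5 of these genes are shown for the E2F motif that the family is known for, 4 with a match and 1 without. They are the origin licensing genes Mcm5, Mcm6 and Orc1 and the clamp loader genes Rfc3 and Rfc4. Mcm6 led its complex, Mcm5, Rfc3 and Rfc4 were among the genes that differed most between the zones, and Orc1 went the other way in mutants on the TPM scale. Each is 300 bases around 1 RefSeq start site on build GRCm38.p6, with 250 bases before and 50 bases after the start site, and capitals mark every E2F octamer (TTTGGCGC, TTTCCCGC, TTTGCCGC or TTTCGCGC, on either strand).
Mcm5 promoter (chr8:75109259-75109558, plus strand): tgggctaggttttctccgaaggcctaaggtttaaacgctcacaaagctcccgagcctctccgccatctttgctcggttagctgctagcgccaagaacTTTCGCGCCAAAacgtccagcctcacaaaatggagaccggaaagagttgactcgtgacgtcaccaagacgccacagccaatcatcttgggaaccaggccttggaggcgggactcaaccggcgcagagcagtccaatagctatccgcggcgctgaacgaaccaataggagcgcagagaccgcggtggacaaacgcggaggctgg
Mcm6 promoter (chr1:128359656-128359955, minus strand): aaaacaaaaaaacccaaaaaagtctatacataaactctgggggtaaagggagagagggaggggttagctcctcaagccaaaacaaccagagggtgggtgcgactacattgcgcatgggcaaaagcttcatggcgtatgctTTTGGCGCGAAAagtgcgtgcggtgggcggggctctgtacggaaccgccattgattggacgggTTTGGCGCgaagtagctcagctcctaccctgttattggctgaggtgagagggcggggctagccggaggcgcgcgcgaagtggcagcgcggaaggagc
Orc1 promoter (chr4:108579204-108579503, plus strand): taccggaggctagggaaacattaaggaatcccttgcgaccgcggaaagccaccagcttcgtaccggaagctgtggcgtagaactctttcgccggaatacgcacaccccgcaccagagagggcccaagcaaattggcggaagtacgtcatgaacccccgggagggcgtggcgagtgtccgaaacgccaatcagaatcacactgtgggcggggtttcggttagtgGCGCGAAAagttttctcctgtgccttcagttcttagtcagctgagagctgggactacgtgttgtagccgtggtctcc
Rfc3 promoter (chr5:151651159-151651458, minus strand): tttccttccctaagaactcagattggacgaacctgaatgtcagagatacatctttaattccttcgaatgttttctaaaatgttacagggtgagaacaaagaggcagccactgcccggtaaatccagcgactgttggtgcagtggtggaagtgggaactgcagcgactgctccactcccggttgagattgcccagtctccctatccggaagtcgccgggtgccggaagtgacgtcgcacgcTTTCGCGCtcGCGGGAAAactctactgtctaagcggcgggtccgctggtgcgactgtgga
Rfc4 promoter (chr16:23127681-23127980, minus strand): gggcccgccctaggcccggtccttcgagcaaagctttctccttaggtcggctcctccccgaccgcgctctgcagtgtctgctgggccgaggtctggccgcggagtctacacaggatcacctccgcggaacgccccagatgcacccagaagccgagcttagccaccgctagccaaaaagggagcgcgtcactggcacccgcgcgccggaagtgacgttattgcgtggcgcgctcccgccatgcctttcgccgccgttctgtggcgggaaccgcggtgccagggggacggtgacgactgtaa
The Mcm5 promoter held 2 octamers, starting 153 and 149 bases before the start site, which lie on opposite strands and share 4 bases. The Mcm6 promoter held 3, at 110, 106 and 47 bases before the start, the first pair again overlapping on opposite strands. Orc1 had 1 octamer at 27 bases before the start, and Rfc3 had 2, at 10 bases before the start and at the start site itself. No octamer was found in the Rfc4 window. Of the 44 genes, 36 had a promoter in the RefSeq table, and 14 of these 36 (38.9%) held an octamer in at least 1 promoter, against 704 of all 27025 genes with a promoter (2.61%). Of 20 genes of G2 and M phase, the stages after replication, 17 had a promoter and 1 held an octamer (5.88%). The cell cycle homology region (TTTGAA or TTCGAA on either strand), known from G2 and M phase promoters, was distributed otherwise: it was in 9 of 36 replication genes (25%), in 13 of 17 G2 and M phase genes (76.5%) and in 21.7% of all genes. CCAAT on either strand was in 58.3%, 88.2% and 41.1% of those. A match of letters is a description and no evidence that a factor binds.

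The replication genes were abundant in every library. In each library their median lay between the 91.8th and the 94.9th percentile of all genes listed, and the lowest of them at the 68.5th percentile or above. Together they made up 0.818 ± 0.0244% of all TPM in mutant centrocytes and 0.808 ± 0.0448% in control centrocytes, and 0.9752 ± 0.0724% in mutant centroblasts and 0.958 ± 0.0298% in control centroblasts (SD, n = 5 each). Averaged over the 20 libraries, Pcna, the sliding clamp that holds polymerases on DNA, was highest at 741 TPM, and Mcm6 and Mcm5 followed at 701 and 554 TPM. At the low end Orc1, the largest subunit of the origin recognition complex, had 17.7 TPM and was the lowest of the 44 in all 20 libraries. Gins3 had 28.6 TPM and Timeless, a fork protection factor, 41.7 TPM.

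Subunits of one complex differed in transcript level, and the order of the GINS, ORC and polymerase delta genes was the same in all 20 libraries. GINS ran Gins2, Gins4, Gins1, Gins3 in 20 of 20 libraries, with 37.7 ± 2.7% of the summed TPM of the complex for Gins2 and 9.0 ± 1.4% for Gins3 (SD over 20 libraries). Among the 3 ORC genes listed, Orc6 took 65.6 ± 5.2% and Orc1 7.2 ± 1.6%, with Orc2 between them in 20 of 20. Pold1, the catalytic subunit of polymerase delta, exceeded Pold2 and Pold2 exceeded Pold3 in 20 of 20. Rfc2 led the clamp loader in 20 of 20 at 37.0 ± 2.3%. The primase subunit Prim1 led, and Prim2 was lowest, of the polymerase alpha and primase complex in 20 of 20. Mcm6 led MCM2-7 in 18 of 20 at 25.3 ± 2.1%, and Mcm5 led in mutant centroblast libraries 4 and 5. Rpa1 exceeded Rpa3 and Rpa3 exceeded Rpa2 in 19 of 20, where the exception was mutant centroblast library 5.

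**Figure D1:**
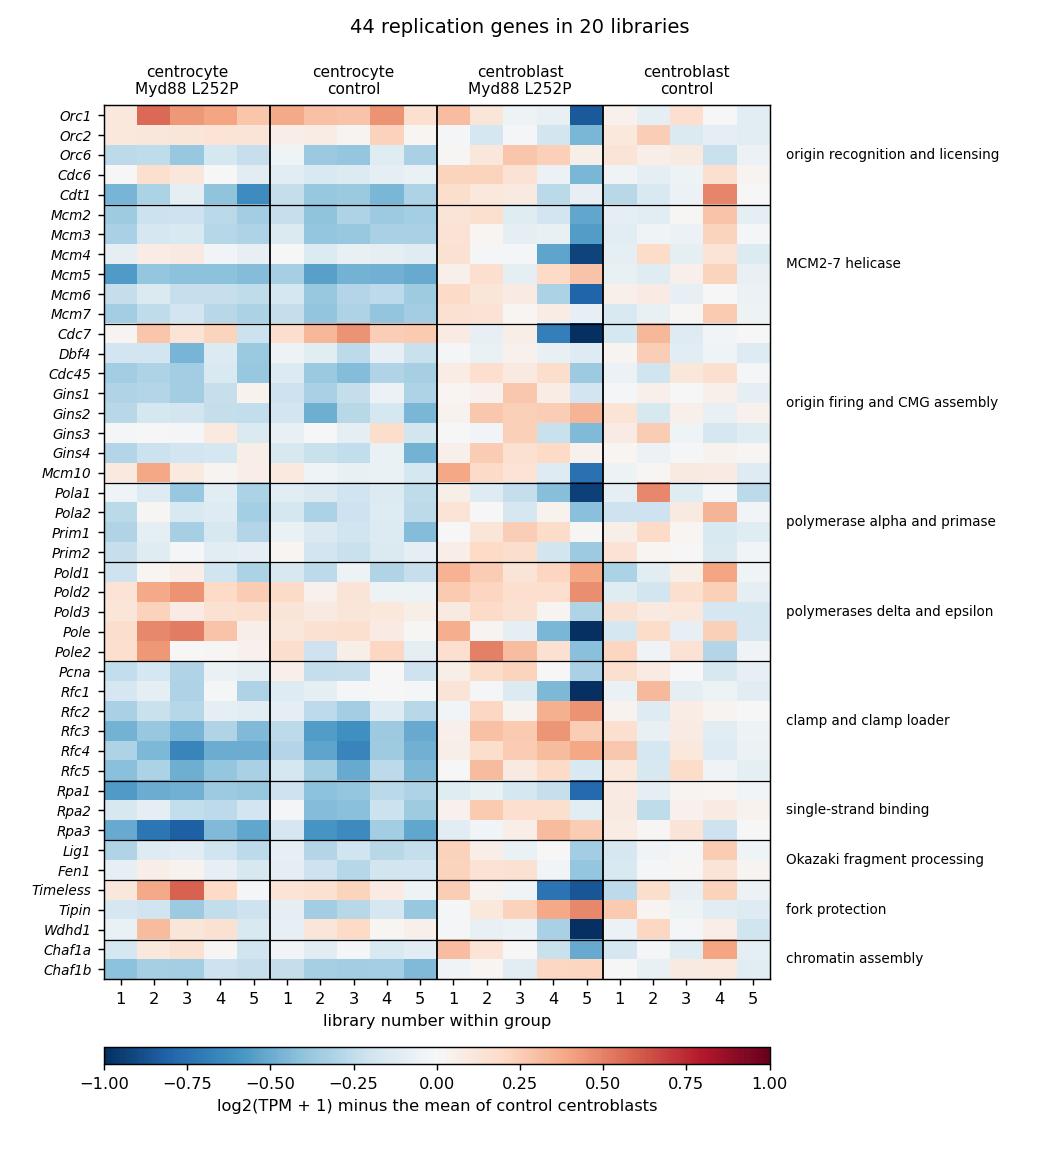
Each row is 1 of the 44 replication genes, ordered by role, and each column 1 of the 20 libraries; colour is log2(TPM + 1) minus the mean of the 5 control centroblast libraries. Most rows are blue in both centrocyte groups, and the columns of mutant centroblast libraries 4 and 5 differ from libraries 1, 2 and 3 of their own group.

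The first comparison asked how replication genes differ between light zone and dark zone cells of control mice. In control centrocytes 17 of the 44 replication genes were lower than in control centroblasts and 0 were higher (limma, adjusted p under 0.05 over 11386 genes; at an unadjusted p under 0.05, 22 were lower and 0 higher). Of all genes tested 9.48% were lower and 21.2% higher. With 1 library left out the count of lower genes was between 10, without control centrocyte library 2 or 3, and 23, without mutant centroblast library 5. The changes were small: the log2 fold change had a median of -0.21 over the 44 genes, against 0.14 over all genes tested, and 42 of the 44 lay below the median of all genes. The largest fall was that of Mcm5, to a ratio of 0.721. With median-of-ratios scaling 29 were lower and 0 higher, beside 17.6% of all genes lower and 18% higher, and 16 of the 17 were among the 29. Tipin, the partner of Timeless, was not among them, with a larger fold change and a wider error (-0.40, SE 0.158, adjusted p = 0.0547, against -0.25, SE 0.0935, on the TPM scale). Without mutant centroblast libraries 4 and 5, which enter here through the pooled spread and the filter, 23 were lower and 2 higher (Orc1 and Cdc7), beside 14.3% and 33.4% of all genes. In 12 genes all 5 control centrocyte libraries lay below all 5 control centroblast libraries, and in 0 above them, beside 9.51% and 17% of all genes. In sorted bulk samples fewer replicating cells and less RNA per cell cannot be told apart.

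The fall was shared by most roles, with some exceptions. Of the 6 genes of the MCM2-7 helicase 4 fell (Mcm2, Mcm3, Mcm5 and Mcm7), as did all 3 RPA genes and 3 of 6 clamp and clamp loader genes (Rfc3, Rfc4 and Rfc5). Among the 8 genes of origin firing, Cdc45, Gins2 and Gins4 fell, and of the 5 origin recognition and licensing genes Orc6 and Cdt1. Chaf1b, a subunit of the histone chaperone CAF-1, and Tipin fell too. Of the 9 polymerase and primase genes 0 passed the test, and neither did the ligase Lig1 or the flap nuclease Fen1, with log2 fold changes between -0.22 and 0.10. With median-of-ratios scaling all 6 MCM genes, Lig1, Fen1 and all 4 polymerase alpha and primase genes passed as lower, while of the 5 genes of polymerases delta and epsilon only Pold1 did.

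Mcm5, a subunit of the helicase ring (chromosome 8, 75109468 to 75128439, GRCm38.p6), had 494, 428, 447, 446 and 439 TPM in control centrocytes, against 591, 572, 645, 726 and 591 TPM in control centroblasts. The groups did not overlap. The log2 fold change was -0.47 (SE 0.079, adjusted p = 0.000149). In mutants Mcm5 had 420.0, 475, 468, 469 and 461 TPM in centrocytes, against 646, 700.3, 580.4, 714 and 759 TPM in centroblasts, again with a gap between the groups (log2 fold change -0.56, SE 0.079, adjusted p = 6.77e-06). With median-of-ratios scaling the mutant fold change was -0.92, and that in controls -0.61. Without mutant centroblast libraries 4 and 5 the mutant fold change was -0.48 on the TPM scale.

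Rfc3, a small subunit of the clamp loader (chromosome 5, 151642817 to 151651208), had 220.3, 179, 173, 206 and 187 TPM in control centrocytes, against 296, 251.7, 280.1, 244 and 256 TPM in control centroblasts. In mutants it had 190.3, 203, 192, 214 and 194 TPM in centrocytes, against 275, 325, 319, 359 and 314 TPM in centroblasts. Every centrocyte library lay below every centroblast library of its genotype, and the log2 fold changes were -0.46 in controls (SE 0.083, adjusted p = 0.000273) and -0.67 in mutants (SE 0.083, adjusted p = 1.35e-06). The fold changes of Rfc3 with median-of-ratios scaling were -1.03 in mutants and -0.60 in controls.

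Rfc4, another small subunit (chromosome 16, 23113948 to 23127730), had 215, 183, 167, 206 and 189 TPM in control centrocytes, against 318, 233, 284, 241 and 253 TPM in control centroblasts. Mutant centrocytes had 213, 193, 166, 186 and 187 TPM, against 274, 299, 315, 329 and 344 TPM in mutant centroblasts. Both pairs of groups were separate. Its fall of 0.72 in mutants (log2, SE 0.095, adjusted p = 2.99e-06) exceeded that of every other replication gene there, and in controls it fell by 0.46 (SE 0.095, adjusted p = 0.000945). Under median-of-ratios scaling it fell by 1.08 in mutants and 0.60 in controls. Without mutant centroblast libraries 4 and 5 its mutant log2 fold change was -0.645 on the TPM scale. That was the largest fall of the clamp and clamp loader genes in this setting, Rfc3 included. Rfc4 shares 194 bases of exon with Eif4a2 on the opposite strand, and whether the counting used strand is not given in the sources used here. Other replication genes share exon bases with another coding gene too. The largest overlaps were those of Chaf1a (4648 bases), Gins2 (2758), Orc2 (1150), Rfc2 (952) and Rfc5 (499). Those of Mcm7, Lig1, Pole2, Cdc45, Orc6 and Fen1 were smaller.

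Rpa3, the smallest RPA subunit, which binds single-stranded DNA with Rpa1 and Rpa2, had 223, 166, 160.1, 196 and 174 TPM in control centrocytes, against 263, 252.4, 273, 217 and 249 TPM in control centroblasts. The control groups overlapped through 1 library of each, and the log2 fold change was -0.45 (SE 0.104, adjusted p = 0.00242). Mutant centrocytes had 176, 151, 141, 184 and 174 TPM, all below the 232, 245, 262, 312 and 298 TPM of mutant centroblasts (log2 fold change -0.70, SE 0.104, adjusted p = 1.29e-05). With median-of-ratios scaling the fold changes were -1.06 in mutants and -0.60 in controls. Without mutant centroblast libraries 4 and 5 the mutant fold change was -0.58 on the TPM scale.

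Among the licensing factors Cdt1, which brings MCM2-7 to origins and is degraded once S phase starts, had 68.8, 62.2, 62.5, 58.8 and 65.4 TPM in control centrocytes, against 67.1, 73.0, 78.1, 114 and 81.3 TPM in control centroblasts. Library 4 of the control centroblasts was high and library 1 lay within the centrocyte range. The log2 fold change of -0.35 passed the test (SE 0.124, adjusted p = 0.0343), and it did not pass without that library (-0.23, adjusted p = 0.112), nor without control centroblast library 5 or any of control centrocyte libraries 2 to 5 (adjusted p between 0.0512 and 0.0754). In mutants Cdt1 had 58.7, 65.1, 76.0, 61.1 and 52.3 TPM in centrocytes, against 91.8, 87.6, 86.8, 67.4 and 76.9 TPM in centroblasts, and fell by 0.39 (log2, SE 0.124, adjusted p = 0.0104). There centroblast library 4 lay within the centrocyte range. With median-of-ratios scaling Cdt1 had log2 fold changes of -0.74 in mutants and -0.49 in controls.

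Mcm2 had 318, 282, 300.02, 288 and 293 TPM in control centrocytes, against 348, 347, 375, 453 and 349 TPM in control centroblasts. It fell by 0.33 (log2, SE 0.103, adjusted p = 0.0192), a call that was lost without control centroblast library 4 (-0.26, adjusted p = 0.0631). In mutants it had 291, 320.3, 322, 309 and 293 TPM in centrocytes, against 407, 415, 343, 326 and 259.7 TPM in centroblasts, where library 5 lay below every centrocyte library. The mutant difference of -0.17 did not pass the test (adjusted p = 0.156), and was -0.33 without mutant centroblast libraries 4 and 5 (adjusted p = 0.00254) and -0.53 with median-of-ratios scaling (adjusted p = 2.62e-05).

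Pcna, Cdc6 and Mcm10 did not pass the test between zones on the TPM scale with all libraries. Pcna had 802, 655, 659, 775 and 667 TPM in control centrocytes, against 862, 815, 774, 692 and 729 TPM in control centroblasts (log2 fold change -0.12, adjusted p = 0.341). In mutants it had 649, 683, 626, 738 and 722 TPM in centrocytes, against 806, 877, 903, 772 and 616 TPM in centroblasts (-0.21, adjusted p = 0.0655). Both pairs overlapped. The mutant difference passed without mutant centroblast library 5 (-0.30, adjusted p = 0.00381) and without libraries 4 and 5 (-0.33, adjusted p = 0.00259). With median-of-ratios scaling Pcna passed as lower in both genotypes (-0.56 in mutants, adjusted p = 0.000121, and -0.27 in controls, adjusted p = 0.0493), and 2 processed copies, Pcna-ps1 and Pcna-ps2, could share its reads.

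Cdc6, the ATPase that loads MCM2-7 with ORC and Cdt1, had 41.4, 40.2, 40.6, 42.0 and 42.7 TPM in control centrocytes, against 43.6, 41.7, 43.2, 50.1 and 45.7 TPM in control centroblasts. In mutants it had 44.7, 50.1, 48.6, 44.6 and 41.6 TPM in centrocytes, against 52.3, 52.4, 49.5, 43.1 and 32.4 TPM in centroblasts. The zones overlapped in both genotypes. The log2 fold changes of -0.11 and 0.02 did not pass the test (adjusted p = 0.455 and 0.899), and with median-of-ratios scaling they were -0.25 and -0.33 (adjusted p = 0.00704 and 0.000357).

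Mcm10, which joins the helicase to polymerase alpha at firing, had 71.9, 64.9, 63.6, 64.0 and 59.1 TPM in control centrocytes, against 64.5, 67.6, 71.2, 71.0 and 61.2 TPM in control centroblasts. Mutant centrocytes had 71.7, 87.8, 71.9, 68.2 and 70.2 TPM, against 87.8, 76.6, 73.6, 61.2 and 39.6 TPM in mutant centroblasts, the widest of the 4 groups. All groups overlapped between zones, and neither difference passed the test on the TPM scale or after rescaling (log2 fold changes -0.05 and 0.17, adjusted p = 0.804 and 0.316, and -0.19 and -0.18 with median-of-ratios scaling, adjusted p = 0.0959 and 0.0826).

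**Figure D2:**
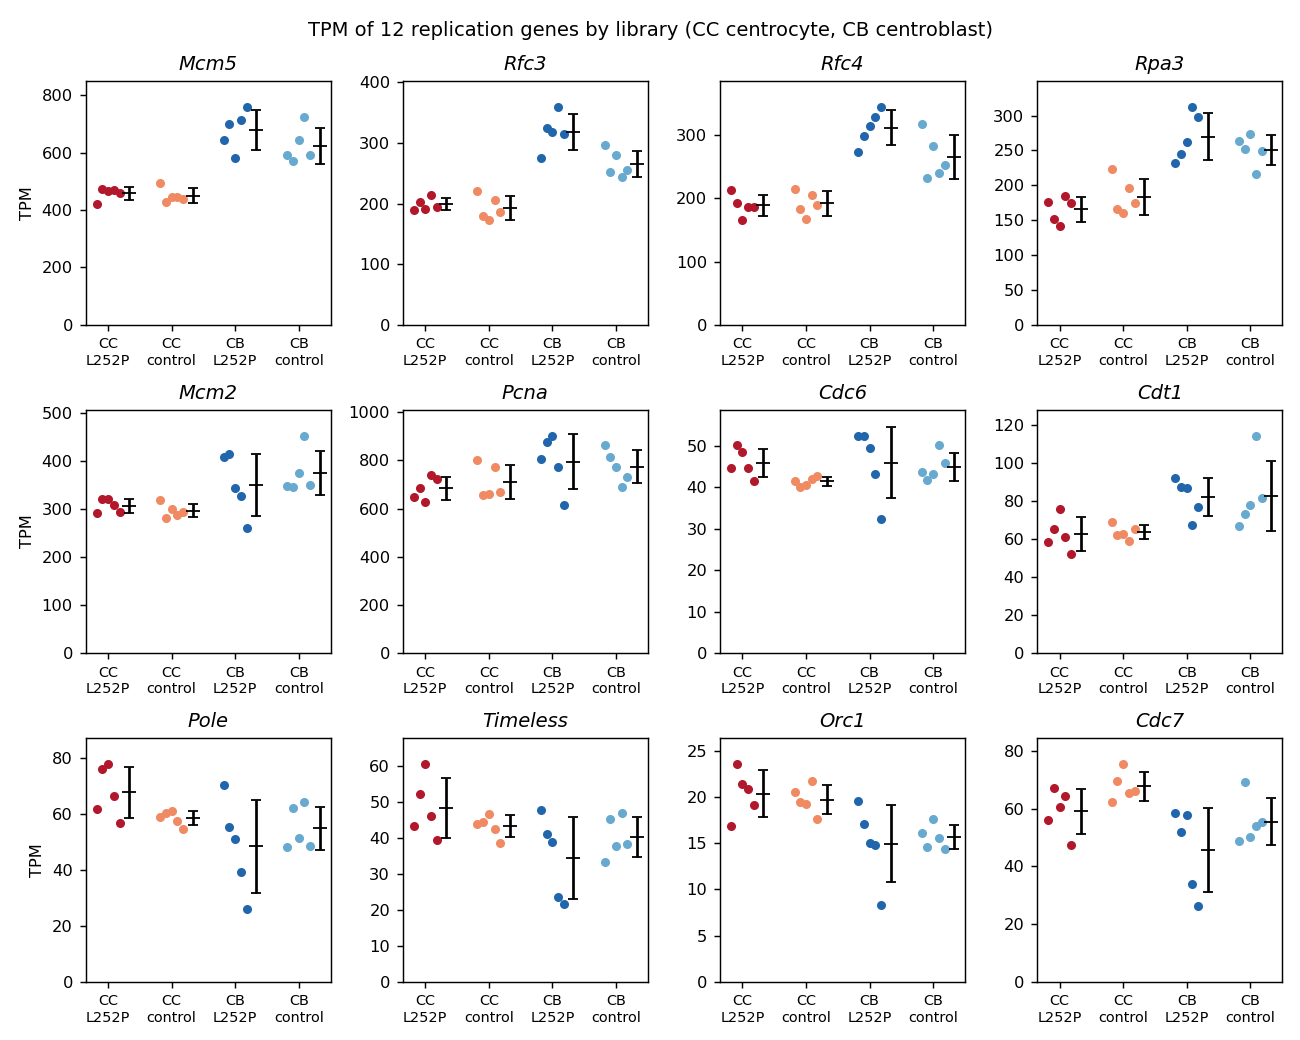
TPM of 12 replication genes, 1 point for each library, in mutant centrocytes, control centrocytes, mutant centroblasts and control centroblasts, with the mean and SD of the 5 libraries as a bar. In the top row Mcm5, Rfc3, Rfc4 and Rpa3 are lower in centrocytes, and in the bottom row Pole, Timeless, Orc1 and Cdc7 have 1 or 2 low libraries among the mutant centroblasts.

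The same comparison in mutants gave a split pattern on the TPM scale. In mutant centrocytes 19 of the 44 genes were lower than in mutant centroblasts and 6 were higher (limma, adjusted p under 0.05), beside 12.6% of all genes lower and 48.8% higher. Of the 19, 14 also fell in controls, which is 73.7% of the calls in mutants and 82.4% of those in controls. The median log2 fold change was -0.17, against 0.34 over all genes, and 39 of the 44 genes lay below the median of all genes. With median-of-ratios scaling 34 were lower and 0 higher, beside 28.8% of all genes lower and 29.7% higher, and the 34 included the 19. Without mutant centroblast libraries 4 and 5, 27 were lower and 0 higher, beside 14.9% and 35.9% of all genes. All mutant centrocyte libraries lay below all mutant centroblast libraries in 14 genes and above them in 1, Orc2, beside 7.91% and 28.7% of all genes.

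By role, the falls in mutants covered 4 of 6 clamp and clamp loader genes (Rfc2, Rfc3, Rfc4 and Rfc5), 5 of 8 genes of origin firing (Dbf4, Cdc45, Gins1, Gins2 and Gins4) and 2 of 3 RPA genes. Mcm5 and Mcm7 were the 2 MCM genes that fell, against 5 of 6 with median-of-ratios scaling and 5 of 6 without libraries 4 and 5. Orc6, Cdt1, Pold1, Prim1, Tipin and Chaf1b fell as well. The 6 that rose came from 4 roles: the origin binders Orc1 and Orc2, the kinase Cdc7, the leading strand polymerase Pole, and the fork protection factors Timeless and Wdhd1. None of the 6 rose with median-of-ratios scaling (log2 fold changes between -0.06 and 0.19) or without mutant centroblast libraries 4 and 5 (0.07 to 0.23).

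Pole, the catalytic subunit of polymerase epsilon, had 61.6, 76.2, 77.8, 66.4 and 56.7 TPM in mutant centrocytes, against 70.3, 55.4, 50.9, 39.3 and 26.0 TPM in mutant centroblasts. Libraries 4 and 5 were the lowest and library 1 lay within the centrocyte range. The rise of 0.54 (log2, SE 0.175, adjusted p = 0.0109) became 0.20 without libraries 4 and 5 (adjusted p = 0.161) and 0.19 with median-of-ratios scaling (adjusted p = 0.131). Pole had 58.9, 60.5, 61.1, 57.6 and 54.8 TPM in control centrocytes, against 48.1, 62.1, 51.4, 64.2 and 48.4 TPM in control centroblasts (log2 fold change 0.10, adjusted p = 0.682).

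Timeless had 43.4, 52.4, 60.7, 46.1 and 39.6 TPM in mutant centrocytes, against 47.7, 41.0, 38.8, 23.5 and 21.7 TPM in mutant centroblasts, where libraries 4 and 5 were again lowest. Its rise of 0.52 (log2, SE 0.173, adjusted p = 0.0127) was 0.17 without them (adjusted p = 0.256) and 0.18 with median-of-ratios scaling (adjusted p = 0.175). In controls it had 44.1, 44.5, 46.8, 42.5 and 38.6 TPM in centrocytes, against 33.3, 45.3, 37.8, 47.1 and 38.4 TPM in centroblasts (0.11, adjusted p = 0.664). Its partner Tipin, which forms the fork protection complex with it, fell in the same cells, with 330 ± 16.5 TPM in mutant centrocytes and 460.4 ± 63.7 TPM in mutant centroblasts (SD, n = 5 each; log2 fold change -0.47, adjusted p = 0.000248, and -0.83 with median-of-ratios scaling).

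Orc1 had 16.9, 23.5, 21.4, 20.8 and 19.1 TPM in mutant centrocytes, against 19.6, 17.1, 15.0, 14.8 and 8.29 TPM in mutant centroblasts. In controls it had 20.6, 19.4, 19.2, 21.7 and 17.6 TPM in centrocytes, against 16.1, 14.6, 17.6, 15.6 and 14.4 TPM in centroblasts. The highest control centroblast library reached the lowest control centrocyte library, so those groups only just overlapped, and in mutants centroblast libraries 1 and 2 lay within the centrocyte range. The log2 fold changes were 0.46 in mutants (SE 0.155, adjusted p = 0.0141) and 0.31 in controls (SE 0.155, adjusted p = 0.127). Without mutant centroblast libraries 4 and 5, which enter the control comparison through the pooled spread and the filter, the control difference passed (0.31, adjusted p = 0.013) and the mutant one did not (0.23, adjusted p = 0.0983). With median-of-ratios scaling the differences were 0.13 in mutants and 0.18 in controls, and neither passed.

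Cdc7 had 56.0, 67.1, 60.4, 64.4 and 47.3 TPM in mutant centrocytes, against 58.4, 51.9, 57.7, 33.9 and 26.2 TPM in mutant centroblasts. In controls it had 62.1, 69.7, 75.4, 65.3 and 66.2 TPM in centrocytes, against 48.6, 69.3, 50.2, 53.9 and 55.2 TPM in centroblasts. The zones overlapped in both genotypes, and mutant centroblast libraries 4 and 5 were the lowest of the 20. The rise of 0.42 in mutants (log2, SE 0.170, adjusted p = 0.0372) was 0.07 without libraries 4 and 5 (adjusted p = 0.644), and 0.29 in controls did not pass (adjusted p = 0.195) except without those libraries (adjusted p = 0.0177). The mutant call was also lost without centroblast library 4 alone (0.33), centroblast library 5 alone (0.24) or any of mutant centrocyte libraries 2, 3 and 4 (0.37 to 0.41), with adjusted p between 0.0652 and 0.133. The values with median-of-ratios scaling were 0.07 in mutants and 0.15 in controls. Dbf4, the activator of Cdc7, had 120 ± 11.4 TPM in mutant centrocytes and 139.6 ± 6.49 TPM in mutant centroblasts and fell (SD, n = 5 each; log2 fold change -0.22, adjusted p = 0.0248, and -0.58 with median-of-ratios scaling).

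Whether the zone difference itself depended on genotype was tested as an interaction. No replication gene passed it on the TPM scale (0 of 44 at an adjusted p under 0.05 and 0 at an unadjusted p under 0.05, limma), beside 0.0176% of all genes. The smallest adjusted p was that of Rfc4 (log2 difference -0.26, 95% interval -0.54 to 0.02, adjusted p = 0.403), and the upper bounds reached 0.95, that of Pole, whose difference was 0.44. With median-of-ratios scaling 0 of 44 passed and 6 had an unadjusted p under 0.05 (Prim1, Rfc3, Pold1, Rfc4, Rfc5 and Orc6, all negative), and with TMM scaling 0 passed and 8 had. The median difference of the 44 genes was then -0.21, against 0.01 on the TPM scale, Rfc4 had -0.47 (adjusted p = 0.463) and Pole 0.23 (adjusted p = 0.512). The 6 genes that rose in mutants and not in controls are therefore not shown to differ between the genotypes.

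**Figure D3:**
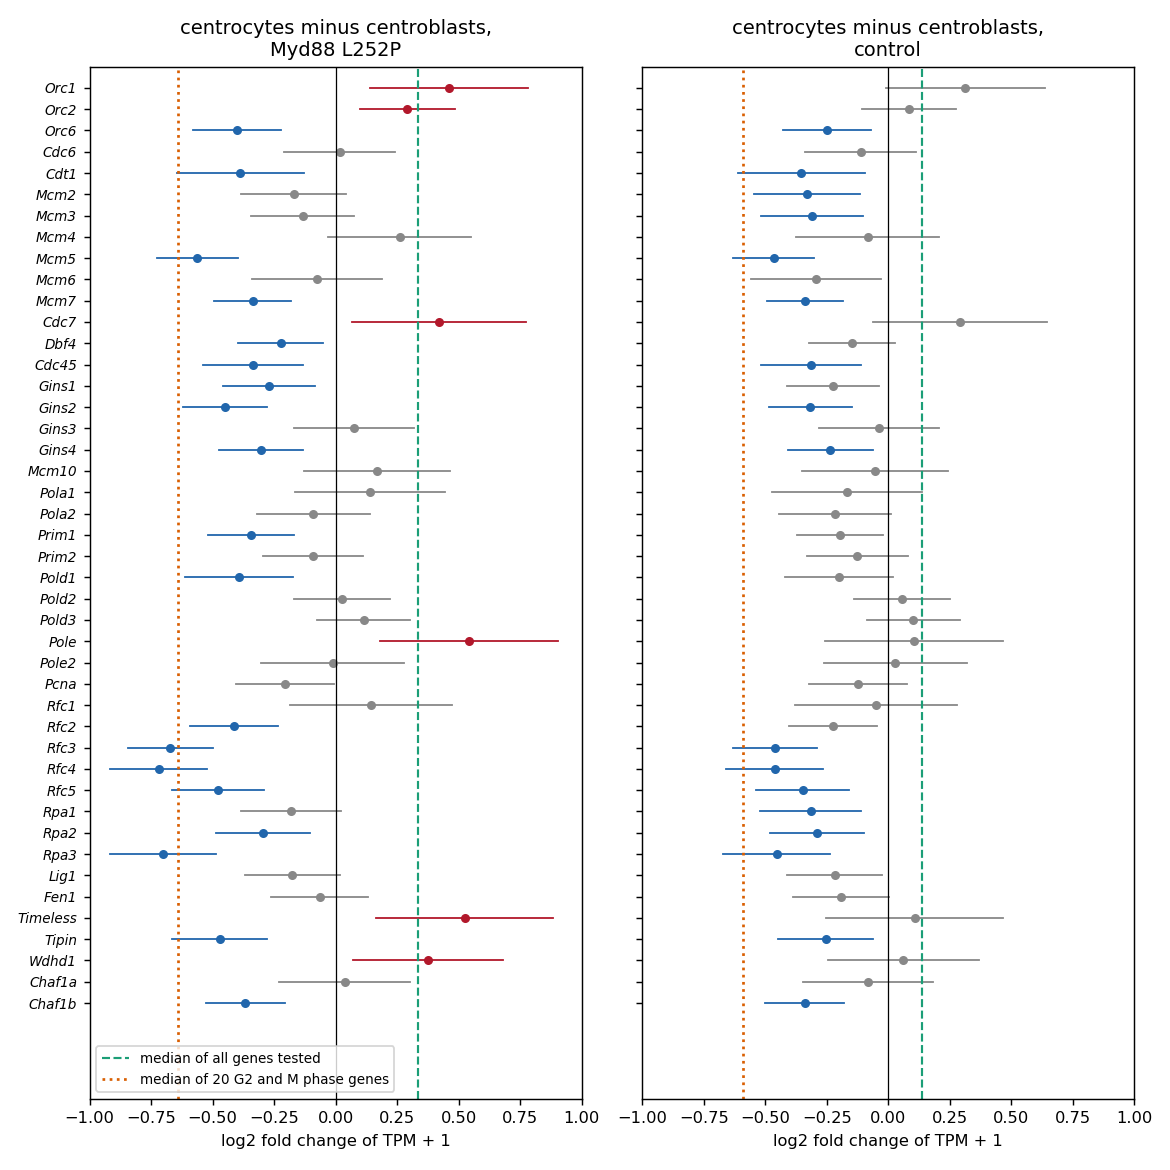
Log2 fold change of TPM + 1, centrocytes minus centroblasts, for the 44 replication genes in mutants and in controls, with 95% intervals; blue marks genes that fell, red genes that rose (limma, adjusted p under 0.05) and grey the rest. The dashed line is the median of all genes tested (0.34 in mutants, 0.14 in controls) and the dotted line the median of 20 G2 and M phase genes (-0.64 and -0.59).

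Genes of neighbouring programmes place these changes. All 20 genes of the G2 and M phase list had negative log2 fold changes in controls and 14 fell (limma, adjusted p under 0.05), with a median of -0.59. In mutants 16 fell, with a median of -0.64. Of all genes tested 9.48% fell in controls and 12.6% in mutants. The replication genes, at -0.21 and -0.17, lay between those genes and the median of all genes. Summed over their list, G2 and M phase genes reached 2207 ± 173 TPM in mutant centrocytes and 2706 ± 252.01 TPM in control centrocytes, and 3827 ± 439 TPM in mutant centroblasts and 4316 ± 218 TPM in control centroblasts. The replication genes summed to 8181 ± 244, 8084 ± 448, 9752 ± 724 and 9583 ± 298 TPM in the same 4 groups (SD, n = 5 each).

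The ratio of the replication sum to the G2 and M phase sum does not depend on how a library is scaled. It lay between 3.45 and 4.06 in mutant centrocytes and between 2.69 and 3.33 in control centrocytes, and between 2.38 and 2.72 in mutant centroblasts and between 2.16 and 2.39 in control centroblasts. Within each genotype every centrocyte library exceeded every centroblast library. Mutant centrocytes did not overlap control centrocytes, and mutant centroblasts overlapped control centroblasts through 1 library of each. Both sums enter this ratio, and in centrocytes the G2 and M phase list had all 20 log2 fold changes between genotypes below 0, with 1 gene called, so the ratio says nothing of the replication genes alone.

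**Figure D4:**
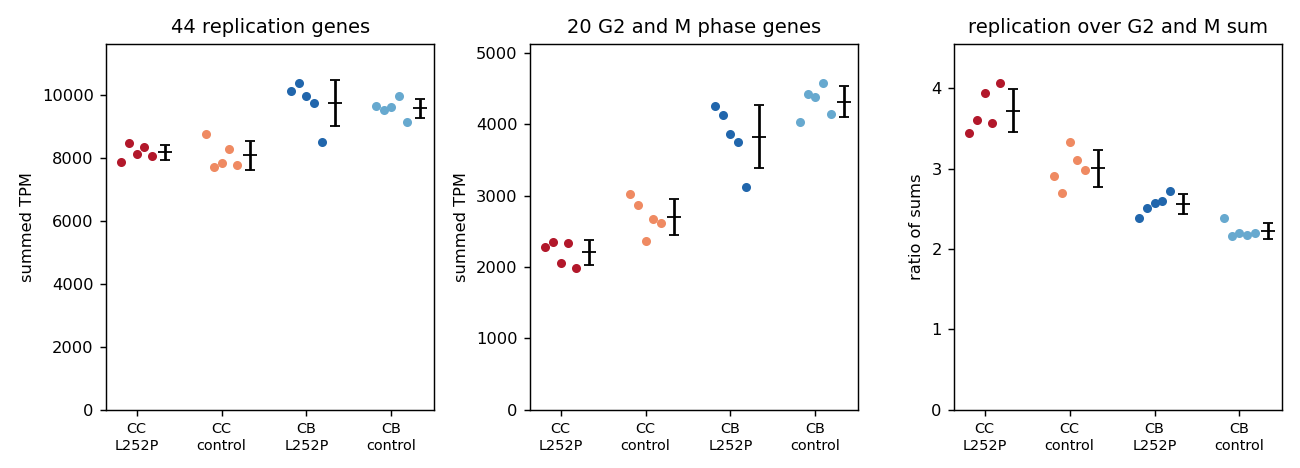
Summed TPM of the 44 replication genes, summed TPM of 20 G2 and M phase genes and the ratio of these sums, 1 point for each library, with mean and SD of 5 libraries. The mean ratio is 3.72 in mutant centrocytes, 3.0 in control centrocytes, 2.56 in mutant centroblasts and 2.22 in control centroblasts.

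Few genes of the E2F and cyclin E system, which controls entry into S phase, changed between zones in controls on the TPM scale. The list mixes activators and inhibitors of that entry, so its median gives no direction for the system. Of 17 such genes 1 rose (Cdkn1b, an inhibitor of cyclin-dependent kinases, 0.54) and 1 fell (Ccna2, cyclin A2, -0.34) in control centrocytes relative to control centroblasts, with a median of 0.02. Of all genes tested 21.2% rose and 9.48% fell there, and in mutants 48.8% rose and 12.6% fell. With median-of-ratios scaling 1 of the 17 was higher and 5 lower in controls, with a median of -0.12. In mutants 5 of the 17 rose and 1 fell, with a median of 0.19, and with median-of-ratios scaling 3 rose and 6 fell, with a median of -0.16. The sign of the median of this list therefore depended on the scaling. With median-of-ratios scaling 18% of all genes rose and 17.6% fell in controls, and 29.7% and 28.8% in mutants.

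A further 45 genes with roles at the fork, in origin control or in replication-coupled chromatin, 44 of them tested, changed in both directions. In control centrocytes 2 were higher and 8 lower than in control centroblasts, beside 21.2% and 9.48% of all genes. In mutant centrocytes 11 were higher and 12 lower than in mutant centroblasts, beside 48.8% and 12.6% of all genes. With median-of-ratios scaling 4 were higher and 23 lower there, beside 29.7% and 28.8%. Rnaseh2c, a subunit of the ribonuclease H2 that removes ribonucleotides from DNA, averaged 50.01 TPM in mutant centrocytes and 103 TPM in mutant centroblasts (log2 fold change -1.02, adjusted p = 2.55e-07), and 59.5 TPM in control centrocytes and 88.0 TPM in control centroblasts (-0.55, adjusted p = 0.000778). Rnaseh2b fell by 0.46 in mutants and by 0.38 in controls. The histone chaperones Asf1a and Rbbp4 fell in both genotypes, by 0.54 and 0.49 in mutants and by 0.42 and 0.44 in controls, and the topoisomerase Top1 fell by 0.47 in controls. All of these falls held with median-of-ratios scaling and without mutant centroblast libraries 4 and 5.

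On the other side Rif1, which restrains origin firing, averaged 55.9 TPM in mutant centrocytes and 29.8 TPM in mutant centroblasts (log2 fold change 0.90, adjusted p = 0.000117), and 49.4 TPM in control centrocytes and 35.8 TPM in control centroblasts (0.49, adjusted p = 0.0299). Its rise held in both genotypes with median-of-ratios scaling (0.56 and 0.35) and without mutant centroblast libraries 4 and 5 (0.69 and 0.49). Supt16h, a subunit of the histone chaperone FACT, Atad5, which unloads PCNA, and Mcm9, a helicase of repair, rose in mutants by 0.76, 0.75 and 0.63, and by 0.41, 0.41 and 0.31 with median-of-ratios scaling. In controls the primase and polymerase Primpol, listed under its older symbol Ccdc111, rose by 0.24 (adjusted p = 0.04999), and by 0.10 with median-of-ratios scaling (adjusted p = 0.5004). In the genotype comparisons 0 of these 44 genes passed the test (limma), beside 1.2% of all genes in centrocytes and 4.29% in centroblasts. At an unadjusted p under 0.05 there were 4 in centrocytes and 5 in centroblasts.

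Markers of other cells moved with the zones and are given beside these counts. A list of 5 naive B cell genes summed to 612 to 771 TPM in mutant centrocytes and 508 to 761 TPM in control centrocytes, and to 91.5 to 195 TPM in mutant centroblasts and 171 to 216 TPM in control centroblasts, with 5 of 5 rising in either genotype. Of 10 macrophage and monocyte genes 8 were tested, and 7 rose in either genotype. Of all genes tested 48.8% rose and 12.6% fell in mutants, and 21.2% rose and 9.48% fell in controls. The 10 macrophage and monocyte genes summed to 82.9 to 197 TPM and 104 to 202 TPM in mutant and control centrocytes. In mutant and control centroblasts they summed to 40.9 to 81.7 TPM and 42.2 to 61.4 TPM. Cd14, Fcgr1 and Mertk of that list were at 0 in at least 1 library. Of 6 plasma cell genes 5 were tested, and 2 fell and 1 rose in either genotype. Their sum was 1549 to 2228 TPM in mutant centrocytes and 1718 to 2049.9 TPM in control centrocytes, and 3121 to 4099.6 TPM in mutant centroblasts and 3056 to 3726 TPM in control centroblasts, with no overlap between zones. Most of it came from Igj and 2010001M09Rik, the genes that fell, while Sdc1 and Tnfrsf17 stayed at or under 2.5 TPM and Prdm1, which rose, at or under 22.4 TPM in every library. The T cell markers Cd3d, Cd3e, Cd3g, Cd4 and Cd8a stayed at or under 2.13 TPM in every library, with Lck of the same list at 97.5 to 289 TPM. The part of these cells in the zone differences was not tested.

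The second question was what the L252P allele changed in replication genes within each zone. In mutant centroblasts 0 of 44 genes differed from control centroblasts (limma, adjusted p under 0.05), beside 4.29% of all genes at that threshold. At an unadjusted p under 0.05 there were 9 of the 44. In mutant centrocytes 0 of 44 differed from control centrocytes at an adjusted p under 0.05, beside 1.2% of all genes. At an unadjusted p under 0.05 there was 1 of the 44. The smallest adjusted p in centroblasts was that of Rfc3 at 0.0697, with a log2 fold change of 0.26 and a 95% interval of 0.09 to 0.43. In centrocytes it was that of Pold2, the regulatory subunit of polymerase delta, at 0.375, with a log2 fold change of 0.23 and an interval of 0.03 to 0.42.

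The intervals bound what these 5 against 5 libraries could show. In centrocytes 41 of the 44 intervals lay within 0.5 of 0 on the log2 scale, in centroblasts 37, and all 44 lay within 1 in both, on the TPM scale. With median-of-ratios scaling 43 lay within 0.5 in centrocytes and 28 in centroblasts, all 44 again within 1, and the bounds in centroblasts ran between -0.37 (Pola1) and 0.75 (Tipin). Ratios of the group means of TPM were between 0.871 (Cdc7) and 1.17 (Pold2) in centrocytes and between 0.799 (Pola1) and 1.199 (Rfc3) in centroblasts. Gins4 was the 1 gene whose mutant centroblast libraries all lay above the control ones, with 103, 119, 110.4, 114 and 103 TPM against 101, 95.3, 98.7, 102 and 101 TPM, beside 0.755% of all genes, and its log2 fold change of 0.14 was not called (adjusted p = 0.246). In centrocytes no replication gene had separate groups, beside 2.63% of all genes above and 1.99% below.

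Other settings called a few genes. With median-of-ratios scaling the median log2 fold change of the 44 genes in centroblasts was 0.20, against 0.02 on the TPM scale. With that scaling 20 of the 44 had an unadjusted p under 0.05. The share of all genes at that threshold is not given, so the 20 have no background beside them. In centroblasts Pold1 passed as higher with median-of-ratios scaling (0.45, adjusted p = 0.0461), beside 2.51% of all genes, and Pold1 and Rfc3 with TMM scaling, beside 2.44%. On the TPM scale without mutant centroblast libraries 4 and 5 neither passed (limma). Pold1 then had 0.24 (adjusted p = 0.335) and Rfc3 0.20 (adjusted p = 0.229). Without mutant centroblast library 1, 5 genes were higher (Rfc2, Rfc3, Rfc4, Gins2 and Tipin) and 4 lower (Rfc1, Pola1, Rpa1 and Mcm4), beside 3.71% and 23.6% of all genes. Erythroid markers moved with the genotype: a list of 6 genes summed to 233 to 579.7 TPM and 323 to 808 TPM in mutant centrocytes and mutant centroblasts, and to 41.6 to 273 TPM and 22.8 to 270.4 TPM in control centrocytes and control centroblasts, mostly from the beta globin gene Beta-s, with Hba-a1 and Hba-a2 listed at 0 in every library. Their part in the genotype values was not tested.

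Within the mutant centroblasts the deviation of the replication genes differed with transcript length. Against the mean of the control centroblasts, the 22 genes with the shorter transcripts (up to 2962 bases) had a median log2 deviation of -0.10 in library 5, while the 22 longer ones (from 3014 bases) had -0.65. In library 4 the medians were 0.16 for the shorter and -0.19 for the longer genes. Libraries 1, 2 and 3 had 0.05, 0.15 and 0.17 for the shorter and 0.14, 0.09 and -0.03 for the longer genes. Across the 44 genes the rank correlation of deviation with length was 0.32, -0.24, -0.63, -0.60 and -0.59 in libraries 1 to 5, as a description over genes that share each library.

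Pola1, Cdc7, Rfc1, Wdhd1, Rpa1, Timeless, Mcm4 and the longest gene, Pole (7163 bases), had the most negative genotype values in centroblasts (-0.33 to -0.24). All of them were among the 22 longer genes. The most positive were Pold1, Rfc3, Pold2, Rfc4, Tipin, Gins2 and Rfc2 (0.27 to 0.20). Of these Pold1 (3454 bases), Gins2 (3900 bases) and Rfc2 (4995 bases) were also among the 22 longer genes. For the genotype comparison in centroblasts the rank correlation with length was -0.60 over the 44 genes, and -0.52 over the 9795 tested genes with a length. In centrocytes it was 0.23 and 0.08. For the zones it was 0.53 over the 44 genes in mutants and 0.35 in controls, and 0.48 and 0.32 over the 9795 genes. Of the largest falls between zones, Rpa3 (670 bases), Rfc4 (1279 bases) and Rfc3 (1317 bases) were among the shorter genes and Mcm5 (3381 bases) among the longer. The genes that rose in mutants on the TPM scale (Orc1, Orc2, Cdc7, Pole, Timeless and Wdhd1) were all among the 22 longer genes. The part of transcript length in the calls was not tested.

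**Figure D5:**
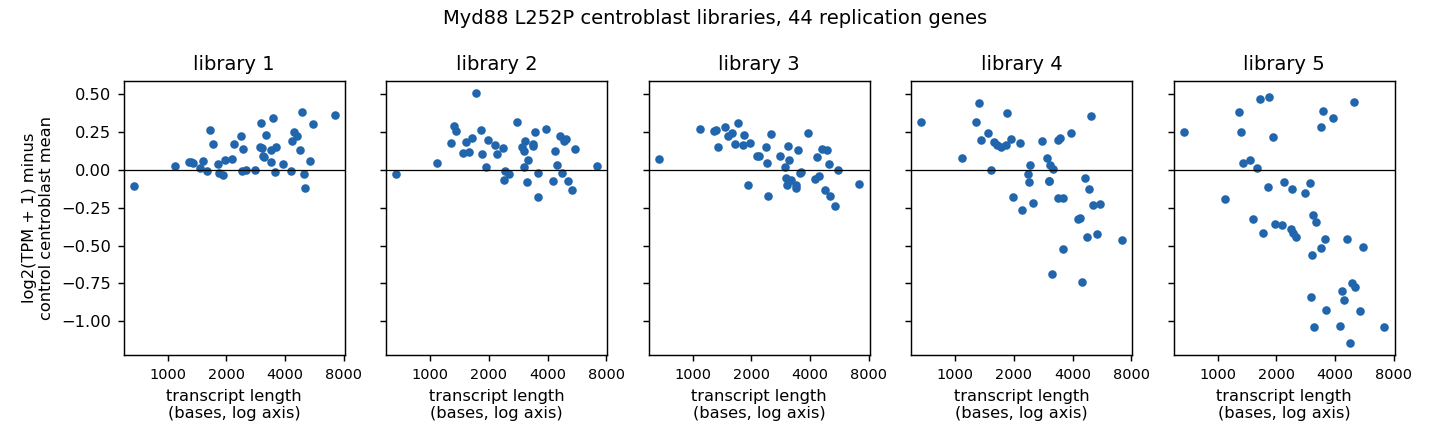
Log2(TPM + 1) of the 44 replication genes in each mutant centroblast library minus the mean of the control centroblasts, against transcript length in bases on a log axis. In libraries 4 and 5 the longer 22 genes have medians of -0.19 and -0.65, against 0.16 and -0.10 for the shorter 22. Library 1 has a median of 0.14 for the longer genes. Of the longer genes Rfc2, Gins2, Pold1 and Mcm5 have positive values in both libraries 4 and 5.

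Zone changes are given last by the E2F octamer of the promoters, a description with no test. In controls the 14 genes with an octamer had a median log2 fold change of -0.21, with 5 lower. The 22 genes whose promoters lacked it had -0.19 and 9 lower, and the 8 without a RefSeq promoter -0.23 and 3 lower. Of all genes tested 9.48% were lower and 21.2% higher there. In mutants the medians were -0.10 with 5 lower and 1 higher, against -0.18 with 9 lower and 4 higher. The 8 without a RefSeq promoter had -0.29, with 5 lower and 1 higher. Of all genes tested 12.6% were lower and 48.8% higher in mutants. Mcm5 and Rfc3 with 2 octamers each and Rfc4 with none all fell in both genotypes, and Orc1 with 1 rose in mutants on the TPM scale.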

How the data were processed

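The deposited files hold 1 TPM value per gene symbol for each of 20 mouse libraries, made by the authors from total RNA with a stranded Illumina TruSeq mRNA kit, per the labels' protocols, and with STAR and build mm10, per the submitters' processing notes. Not given in the sources used here are the annotation, the counting tool, its use of strand and the version of STAR. TPM keeps no read depth, so depth is unknown and no counting interval is given.

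A gene had to reach 1 TPM in 5 or more libraries to be tested with limma 3.58.1 in R 4.3.3 (a mean per group over all 20 libraries, empirical Bayes with trend and robust settings) on log2(TPM + 1), which understates changes of low genes. P-values were adjusted over all 11386 genes by Benjamini and Hochberg, with a threshold of 0.05. Counts at an unadjusted p under 0.05 are given without the share of all genes at that threshold. The code was tested on simulated data. Intervals are 95% intervals of the fit.

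The alternatives were a pseudocount of 0.1, no filter, a filter of 5 TPM, median-of-ratios and TMM scaling, no trend or robust settings, library weights, only the groups compared, the replicate number as a block and leaving out each library. TMM factors were computed from the published formula as a scaling of TPM; edgeR was not used, since the files hold no counts. Analyses without mutant centroblast libraries 4 and 5 and scaling without those libraries were chosen after seeing the data.

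The members and lists were chosen with earlier results of these data known. Values in every library are given for the 4 largest called rises and falls between zones in each genotype and for Pcna, Mcm2, Mcm10, Cdc6, Cdt1 and Orc1; of the other replication genes up to 4 called in each direction are named by adjusted p. Gins4, Tipin, Dbf4, Orc2, Rnaseh2b in controls and the genes named in genotype comparisons were singled out after their values were seen. Promoters and gene positions are from RefSeq on GRCm38.p6, the same assembly as mm10, and transcript lengths are the longest coding transcript of GENCODE M21.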

Additional observations from a re-analysis of the deposited data

Results flagged for a closer look

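In 60 groups of 5 libraries, a library was compared with the rest of its group by Dixon's ratio of gap to range, with a critical value of 0.71. About 3 groups would be expected to pass by chance, and 4 did. Mcm5 in mutant centrocyte library 1 was 420.0 TPM, against 461 to 475 TPM in the other libraries of that group. Mcm10 in mutant centrocyte library 2 was 87.8 TPM, against 68.2 to 71.9 TPM. Mcm2 in control centroblast library 4 was 452.6 TPM, against 347 to 375 TPM, and the call of Mcm2 between zones in controls was lost without it. The ratio of summed replication to summed G2 and M phase TPM in control centroblast library 1 was 2.39, against 2.16 to 2.20. No replication gene passed the test of a different genotype effect in the 2 zones (limma, 0 of 44, with 0 at an unadjusted p under 0.05 on the TPM scale, 6 with median-of-ratios scaling and 8 with TMM scaling).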

How the results depend on the processing

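A pseudocount of 0.1, a filter of 5 TPM, no filter, no trend or robust settings and the replicate block left the counts of replication genes called within 1.5 times. With the replicate block the counts were 17 lower and 0 higher between zones in controls, 19 lower and 6 higher in mutants, and 0 between genotypes. Between zones in controls, 29 were lower with median-of-ratios and with TMM scaling and 34 with median-of-ratios scaling without mutant centroblast libraries 4 and 5. There 2 were higher with only the groups compared, 3 with library weights and 2 without those libraries. In mutants, 34 were lower with either scaling and 35 with median-of-ratios scaling without the libraries, and 0 were higher in each of these, 0 without the libraries, 1 with only the groups compared and 3 with library weights. Of all genes, median-of-ratios scaling called 17.6% lower and 18% higher in controls, and 28.8% and 29.7% in mutants. Without the libraries these shares were 14.3% and 33.4% in controls, and 14.9% and 35.9% in mutants. For the other zone settings, for library weights between genotypes and for most fits with 1 library left out, the shares are not given. Those counts have no background beside them. Between genotypes in centroblasts 1 gene was higher with median-of-ratios scaling, 2 with TMM scaling and 1 with library weights, and in centrocytes 1 with library weights. Leaving out 1 library at a time gave 10 to 23 lower and 0 to 1 higher between zones in controls, 18 to 26 lower and 4 to 7 higher in mutants, and 0 to 5 higher and 0 to 4 lower between genotypes in centroblasts. The low of 10 came without control centrocyte library 2 or 3, and the cause was not tested.

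Between zones in controls, log2 fold changes turned negative for Pole (-0.0375 with median-of-ratios, -0.0272 with TMM and -0.0405 with median-of-ratios scaling without libraries 4 and 5) and Timeless (-0.0316, -0.0214 and -0.0346). In mutants Cdc7 was -0.11 with the last of these. Mcm10 was -0.18 with median-of-ratios, -0.17 with TMM, -0.28 with median-of-ratios scaling without the libraries, -0.0543 with library weights and -0.10 without the libraries, and -0.0103 to 0.272 with 1 library left out. Cdc6 was -0.33, -0.32, -0.33, -0.15 and -0.16 in the same order, and -0.100 to 0.0697 with 1 library left out. Of the values of named genes under alternatives 725 kept direction and side of the threshold, 34 lost the call, 26 gained it and 21 changed sign. None of these calls changed with the replicate block. The labels do not say that replicate numbers pair libraries, and the correlation of deviations of same-numbered centrocytes and centroblasts was above 0.1 in 4 of 5 pairs in either genotype, with means of 0.175 in mutants and 0.162 in controls, against -0.0433 and -0.0404 for other pairs. In mutants 5 of 10 libraries and in controls 8 of 10 correlated best with their own number, a hint from the data and not from the design. Across genotypes, same-numbered control centroblasts and mutant centrocytes had a mean of 0.102, with 6 of 10 best with their own number. Control and mutant centrocytes had 0.113 and 3 of 10. Mutant centroblasts and control centrocytes had 0.0295 and 3 of 10, and control and mutant centroblasts -0.00769 and 2 of 10. What the shared numbers mark was not tested. Depth is unknown, so the smallest change that could be called is known only through the intervals.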
